A study of Mus musculus with 11 samples.

Results

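Immediate early genes are the first genes switched on when a cell receives a growth factor, cytokine or stress signal, and 10 of them were followed here in mouse acute myeloid leukaemia (AML). They were chosen by name, as the rows of the count table whose Ensembl identifiers belong to Egr1, Egr2, Fos, Fosb, Jun, Junb, Ier2, Dusp1, Atf3 and Nr4a1. All 10 were found among the 55487 genes of the table, and all 10 were among the 14521 genes with enough counts to be tested.

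Transcription of these genes needs no new protein synthesis. Pre-bound factors such as SRF with its ELK and MRTF partners, and CREB, are modified by MAP kinase and other signalling and start transcription within minutes, and the short-lived transcripts fall again soon after. EGR and NR4A proteins and the FOS, JUN and ATF leucine zipper proteins, which pair to form the factor AP-1, then switch on later genes, while DUSP1 removes phosphate from MAP kinases and so ends the signal. In blood cells the same genes take part in the differentiation of myeloid cells and in the activation of mature granulocytes and lymphocytes, and they are also known to be induced while a tissue is dissociated.

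Bulk RNA sequencing was done on 11 AML samples that arose in mice with a pair of alterations, Flt3-ITD (a tandem duplication that activates the receptor tyrosine kinase FLT3) and NHD13 (a transgene for the NUP98-HOXD13 fusion). Both alterations were present in every sample, so neither can be compared. The groups differed in Ifnar1, which encodes a subunit of the type I interferon receptor: 6 libraries came from Ifnar1 +/- and 5 from Ifnar1 -/- AML, and no library was wild type for Ifnar1. Age, sex and treatment were not found in the labels, and the labels do not say whether each sample is a different mouse. The spread that p-values measure is therefore that between samples, and part of it may be technical. Because the RNA is from bulk samples, fewer cells that express a gene and less of its RNA per cell cannot be told apart.

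Library totals were 25583642 to 38728143 estimated counts. Ifnar1 itself was counted at 61.0 ± 16.9 CPM (SD, n = 6) with one intact allele and at 69.2 ± 38.4 CPM (SD, n = 5) with none, and a whole-gene count does not check a deletion of part of the gene. CPM are counts scaled to a common library total after adjustment of the libraries with TMM factors. The libraries stood apart in their cell type genes. In 5 of them (Ifnar1 +/- libraries 3, 4 and 5 and Ifnar1 -/- libraries 3 and 5) the 10 B-lineage markers summed to 5881 to 9243 CPM, and Ebf1, a transcription factor that commits cells to the B lineage, had 531 to 745 CPM. In the other 6 the B-lineage sum was 11.9 to 126 CPM and Ebf1 had 0.0309 to 8.72 CPM. The 10 myeloid progenitor markers summed to 1517 CPM in Ifnar1 -/- library 2 and to 35.5 to 259.9 CPM in the other libraries, all of them labelled AML. Among them Spi1 had 26.6 to 508 CPM, while the granule gene Mpo had at most 53.6 CPM and Cebpa at most 0.682 CPM. Flt3 had 72.9 to 233 CPM and Kit 6.77 to 599 CPM. Ifnar1 -/- library 2 carried 68518 CPM of the 10 eosinophil markers, of which Prg2 (eosinophil major basic protein) made up 47695 CPM, and 38530 CPM of the 10 neutrophil markers, against at most 2024 and 6978 CPM in any other library. Ifnar1 +/- library 6 carried 134542 CPM of the 10 erythroid markers, against at most 15775 CPM elsewhere. Sex-linked transcripts of Ifnar1 -/- library 2 also differed, with Xist at 0.155 CPM and the Y-linked gene Ddx3y at 42.2 CPM, against 37.6 to 85.6 and 0 to 0.788 CPM in the others. The effect of sex and that of the other differences of this library cannot be told apart.

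The promoters of 6 members are shown so that the letters of known response elements can be seen beside the levels of the genes. They were chosen after the values were seen, for members of each family that stood apart in single libraries, with Jun shown as the member without these letters. The set of RefSeq promoter sequences searched was on GRCm38.p6 and ran from 250 bases before to 50 bases after a start. It held 8 of the 10 members, all but Egr1 and Ier2. A gene absent from the set searched may still have a promoter in RefSeq. Sequences run 5′ to 3′ on the gene's own strand, and capitals mark the cAMP response element half-site (TGACG, or CGTCA when read on the other strand), the full element TGACGTCA that contains it, and the CArG box to which SRF binds. They are Fos at chr12:85473640-85473939 (plus strand), Junb at chr8:84978699-84978998 (minus), Dusp1 at chr17:26508423-26508722 (minus), Nr4a1 at chr15:101266596-101266895 (plus), the third of the 5 Egr2 promoters in RefSeq at chr10:67537619-67537918 (plus), and Jun at chr4:95052173-95052472 (minus), which has none of the capitalised motifs.
Fos: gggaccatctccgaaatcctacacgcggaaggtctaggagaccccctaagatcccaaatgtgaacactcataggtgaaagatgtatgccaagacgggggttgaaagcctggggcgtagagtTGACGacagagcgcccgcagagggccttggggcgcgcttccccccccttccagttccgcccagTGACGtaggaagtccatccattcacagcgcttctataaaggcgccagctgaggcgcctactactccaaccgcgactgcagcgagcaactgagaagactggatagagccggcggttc
Junb: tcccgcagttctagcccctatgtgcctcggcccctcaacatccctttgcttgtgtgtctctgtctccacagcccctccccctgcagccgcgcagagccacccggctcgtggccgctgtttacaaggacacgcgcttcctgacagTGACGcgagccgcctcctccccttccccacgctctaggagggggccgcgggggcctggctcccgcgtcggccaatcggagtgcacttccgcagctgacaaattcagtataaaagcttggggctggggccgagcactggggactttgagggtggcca
Dusp1: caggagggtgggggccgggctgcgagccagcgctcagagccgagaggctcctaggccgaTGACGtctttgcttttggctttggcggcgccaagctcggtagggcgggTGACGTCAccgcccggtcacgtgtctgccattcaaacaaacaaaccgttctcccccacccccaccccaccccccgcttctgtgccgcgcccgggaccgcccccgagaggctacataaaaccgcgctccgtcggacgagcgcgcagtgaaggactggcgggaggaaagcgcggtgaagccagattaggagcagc
Nr4a1: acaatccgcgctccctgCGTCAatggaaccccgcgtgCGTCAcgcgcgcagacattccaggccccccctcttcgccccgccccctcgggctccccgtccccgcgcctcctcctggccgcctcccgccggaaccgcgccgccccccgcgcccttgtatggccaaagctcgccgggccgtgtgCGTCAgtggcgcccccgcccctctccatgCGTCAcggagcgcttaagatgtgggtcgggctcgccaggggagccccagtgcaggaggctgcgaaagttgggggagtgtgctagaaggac
Egr2: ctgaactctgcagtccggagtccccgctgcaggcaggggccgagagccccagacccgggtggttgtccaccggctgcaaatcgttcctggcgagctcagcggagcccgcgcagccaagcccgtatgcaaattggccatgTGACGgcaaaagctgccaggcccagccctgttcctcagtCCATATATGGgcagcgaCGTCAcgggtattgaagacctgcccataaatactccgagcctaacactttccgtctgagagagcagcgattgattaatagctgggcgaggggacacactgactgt
Jun: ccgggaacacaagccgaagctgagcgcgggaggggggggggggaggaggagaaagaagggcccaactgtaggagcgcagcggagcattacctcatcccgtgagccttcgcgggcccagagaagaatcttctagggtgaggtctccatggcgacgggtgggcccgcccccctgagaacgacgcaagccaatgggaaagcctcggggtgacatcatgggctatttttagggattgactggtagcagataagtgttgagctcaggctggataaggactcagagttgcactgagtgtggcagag

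The half-site TGACG occurred on either strand in 7 of the 8 members with a promoter in the set searched. It occurred in 20.8% of the 32817 promoters searched and in 23.0% of the 26994 genes with a promoter among them. Jun was the member without it. Nr4a1 held it at 4 places and Fos at a pair of places, -129 and -66 relative to the start. The full element TGACGTCA, which overlaps the half-site, occurred in Dusp1 alone among the 8 and in 1.79% of all promoters. A CArG box was found in Egr2 alone among the 8, at -72 relative to the start in the promoter shown, and in 1.63% of all promoters. The EGR site GCGNGGGCG was found in Fosb and Nr4a1 and in 5.56% of all promoters. The AP-1 site TGANTCA was in none of the 8 and in 7.81% of all promoters. Shares of all promoters are shares of the 32817 searched. These are matches of letters in a window of fixed length, and binding was not measured.

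The comparison in the design asks what loss of Ifnar1 does to gene expression in this leukaemia. The immediate early genes did not move as a group with the genotype. Egr1 was on average lower in Ifnar1 -/- AML, Atf3 was lower and Dusp1 and Fos were higher on average through a single library each, and the remaining 6 lay close together or varied more within a genotype than between genotypes. With edgeR's quasi-likelihood test, the adjusted p was 0.9998 for each of the 10, and no member passed, as was so of all tested genes (0 of 14521, 0%). At an unadjusted p under 0.05 there were 2 members, Egr1 lower and Dusp1 higher in Ifnar1 -/-, and 289 genes in all (1.99%). Fitted values were lower in Ifnar1 -/- for 3 of 10 members, against 51.7% of tested genes, and the median log2 fold change was 0.17 over the members and -0.01 over all tested genes. In none of the 10 were the genotypes free of overlap, a pattern shown by 0.124% of tested genes.

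The direction of most members hung on Ifnar1 -/- library 2. Without it, fitted values were lower in Ifnar1 -/- for 9 of 10 members, all but Jun, against 54.3% of the genes tested then. The median log2 fold change over the members was then -1.06, beside -0.03 over all genes. No member passed in that fit either. The members move together across libraries, so their shared direction is not 9 separate observations.

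**Figure D1:**
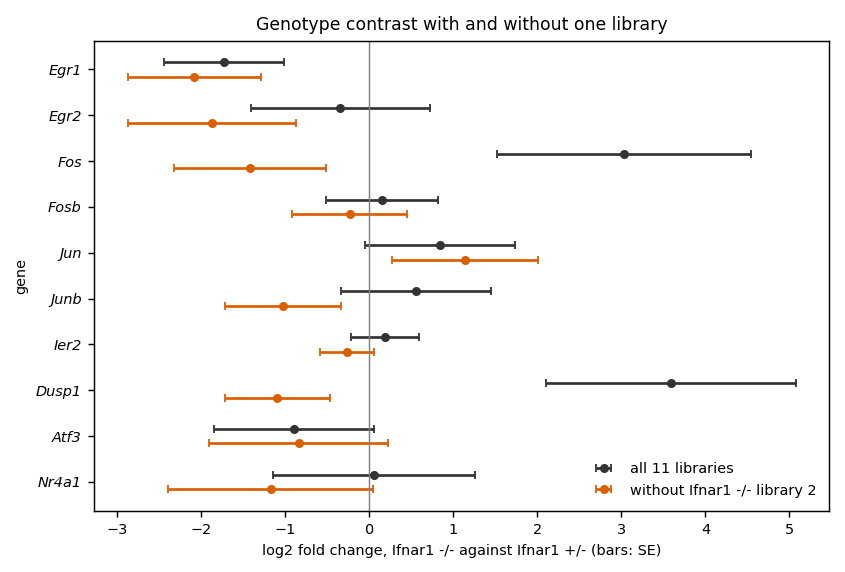
Log2 fold change of each immediate early gene, Ifnar1 -/- against Ifnar1 +/-, with bars of 1 SE from edgeR, in all 11 libraries (dark) and without Ifnar1 -/- library 2 (orange). Fos goes from 3.03 to -1.42 and Dusp1 from 3.59 to -1.10 when that library is left out, while Egr1 stays below 0 at -1.73 and -2.08.

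Egr1 encodes a zinc finger transcription factor that in mouse myeloid cells favours the macrophage fate. Its gene (ENSMUSG00000038418) is on the plus strand of chromosome 18 with 4484 exonic bases in GENCODE M21 on GRCm38. Values below are listed in the order of library number. Ifnar1 +/- libraries 1 to 6 had 26.8, 72.2, 11.8, 11.6, 19.7 and 128 CPM, and Ifnar1 -/- libraries 1 to 5 had 5.96, 25.4, 7.73, 18.6 and 10.3 CPM. The genotypes overlapped between 11.6 and 25.4 CPM, and the 3 highest values were all Ifnar1 +/-. The mean was 45.1 ± 46.6 CPM (SD, n = 6) against 13.6 ± 8.18 CPM (SD, n = 5). In edgeR the log2 fold change was -1.73 (SE 0.72, unadjusted p = 0.0349, adjusted p = 0.9998). The highest value came from Ifnar1 +/- library 6, the one with the high erythroid sum, and leaving that library out gave -1.06. The part of erythroid cells in this value was not tested.

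Egr2, a close relative of Egr1 that is also known for restraining T cell activation, was low in all but a pair of libraries. Ifnar1 +/- libraries 1 to 6 had 1.85, 26.3, 1.69, 0.727, 2.58 and 2.63 CPM, and Ifnar1 -/- libraries 1 to 5 had 1.20, 17.2, 1.61, 1.70 and 1.86 CPM. One library of each genotype, library 2 in both, was several times above the rest, and the other 9 overlapped. The means of 5.96 ± 9.99 (SD, n = 6) and 4.71 ± 6.98 CPM (SD, n = 5) differed by less than the spread, with a log2 fold change of -0.34 (SE 1.07). It was 1.31 without Ifnar1 +/- library 2 and -1.87 without Ifnar1 -/- library 2.

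**Figure D2:**
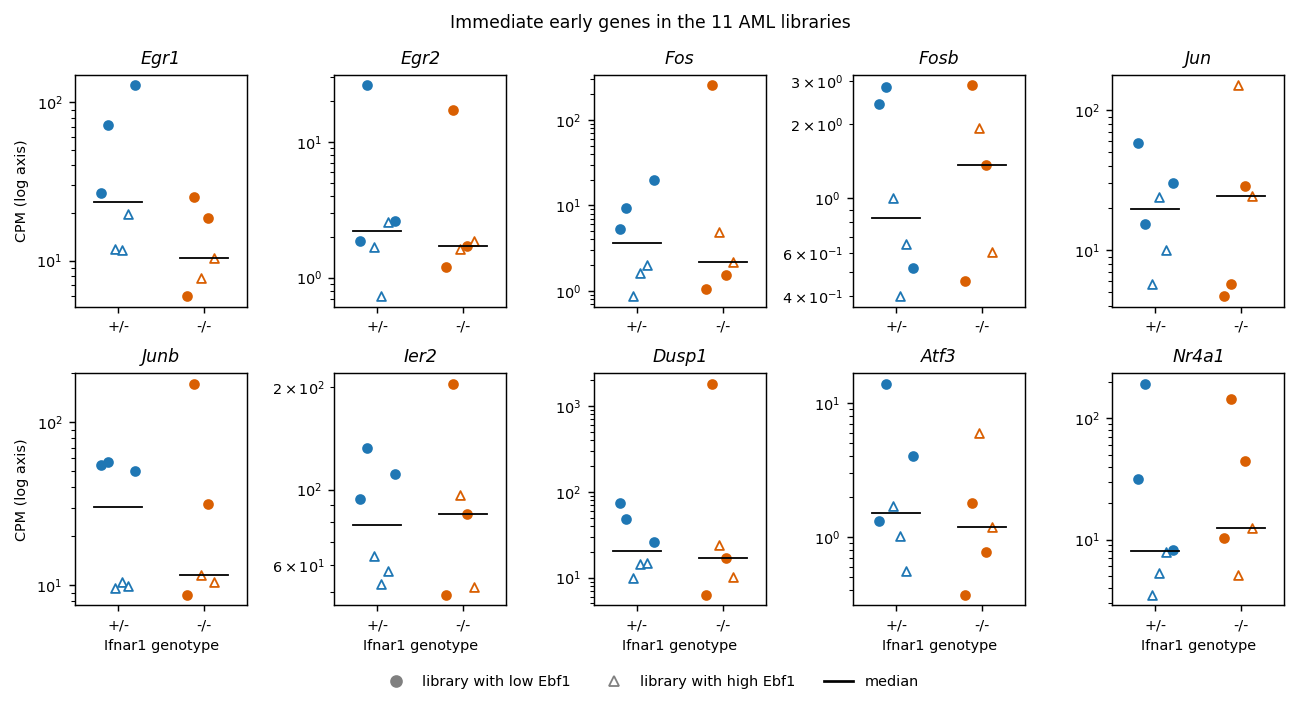
CPM on a log axis of each immediate early gene in the 6 Ifnar1 +/- (blue) and 5 Ifnar1 -/- libraries (orange), with 1 point per library, filled circles for the 6 libraries with low Ebf1, open triangles for the 5 with high Ebf1, and a line at the median of each genotype. The genotypes overlap for all 10 genes, and single points stand far above the rest, such as Fos at 255 CPM and Dusp1 at 1824 CPM in Ifnar1 -/- library 2.

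Fos, the FOS subunit of AP-1, ranged 295-fold between libraries. Ifnar1 +/- libraries 1 to 6 had 5.32, 9.29, 0.864, 1.64, 2.0 and 19.6 CPM, and Ifnar1 -/- libraries 1 to 5 had 1.05, 255, 4.83, 1.55 and 2.17 CPM. The value of Ifnar1 -/- library 2 was 13.0 times the next highest, and the other 4 Ifnar1 -/- libraries lay within the Ifnar1 +/- range. The Ifnar1 -/- mean of 52.8 ± 113 CPM (SD, n = 5) became 2.40 ± 1.69 CPM (SD, n = 4) without it, beside 6.45 ± 7.15 CPM (SD, n = 6) in Ifnar1 +/- AML. The log2 fold change went from 3.03 (SE 1.51) to -1.42 (SE 0.91).

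Fosb, a FOS family subunit best known from neurons, was the scarcest member for its length. Its levels ran from 0.400 to 2.84 CPM in Ifnar1 +/- and from 0.463 to 2.89 CPM in Ifnar1 -/- AML, with medians of 0.830 and 1.36 CPM, on 11 to 85 counts per library. The ranges were almost the same, and the log2 fold change was 0.15 (SE 0.66).

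Jun and Junb are both partners of FOS in AP-1, and JUNB is known to hold back the growth of myeloid cells in mice. Jun had 58.5, 15.3, 5.76, 24.2, 10.1 and 30.0 CPM across the 6 Ifnar1 +/- libraries and 4.69, 5.78, 151, 28.9 and 24.5 CPM across the 5 Ifnar1 -/- libraries. It was highest in Ifnar1 -/- library 3 and near its lowest in Ifnar1 -/- library 2, the library in which Fos and Junb were highest. The log2 fold change of Jun was 0.84 (SE 0.89), and -0.57 without Ifnar1 -/- library 3. An antisense gene, Junos, shares 232 bases (7.28%) of the exonic sequence of Jun. Whether the counting used the strand is not given in the sources used here, so reads from the shared bases cannot be told apart.

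Junb had 55.0, 56.9, 9.61, 10.5, 9.92 and 50.1 CPM across the 6 Ifnar1 +/- libraries and 8.74, 172, 11.6, 31.5 and 10.5 CPM across the 5 Ifnar1 -/- libraries. Its values fell into a low set of 8.74 to 11.6 CPM, made of 6 libraries of both genotypes, and a high set of 31.5 to 172 CPM, made of 5. The means were 32.0 ± 24.2 CPM (SD, n = 6) and 47.0 ± 70.8 CPM (SD, n = 5). The log2 fold change was 0.55 (SE 0.89), and -1.03 without Ifnar1 -/- library 2. Junb shares 173 bases (7.52%) of its exonic sequence with Prdx2 on the opposite strand.

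Ier2, a small nuclear protein induced with the AP-1 genes, was the steadiest member, with a 4.19-fold range. It had 93.6, 133, 63.9, 52.5, 57.5 and 111 CPM across the 6 Ifnar1 +/- libraries and 49.0, 205, 96.6, 84.8 and 51.7 CPM across the 5 Ifnar1 -/- libraries. The highest value was again in Ifnar1 -/- library 2, and the genotypes overlapped over most of the range. The means of 85.3 ± 32.6 CPM (SD, n = 6) and 97.5 ± 63.6 CPM (SD, n = 5) differed by less than either SD, with a log2 fold change of 0.19 (SE 0.40). Ier2 lies 316 kb from Junb on the same mouse chromosome and strand, with 17 protein-coding genes between them.

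Dusp1, the phosphatase that switches MAP kinases off, showed the widest departure. Ifnar1 +/- libraries 1 to 6 had 73.3, 48.8, 9.83, 14.6, 14.9 and 25.8 CPM, and Ifnar1 -/- libraries 1 to 5 had 6.30, 1824, 24.3, 16.7 and 10.2 CPM. Ifnar1 -/- library 2 stood at 24.9 times the next highest library, on 35348 counts, and the other 4 Ifnar1 -/- libraries lay between 6.30 and 24.3 CPM. In edgeR the log2 fold change was 3.59 (SE 1.49, unadjusted p = 0.0345, adjusted p = 0.9998), and without that library -1.10 (SE 0.63). The Ifnar1 -/- mean changed from 376 ± 809 CPM (SD, n = 5) to 14.4 ± 7.87 CPM (SD, n = 4), beside 31.2 ± 24.9 CPM (SD, n = 6) in Ifnar1 +/- AML. The TMM factor of that library was 0.682, so that without TMM scaling its Dusp1 value was 1241 CPM and its Fos value 173 CPM.

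Atf3, a stress-induced leucine zipper protein that often acts as a repressor, had 1.33, 13.9, 1.69, 1.02, 0.555 and 4.03 CPM across the 6 Ifnar1 +/- libraries and 0.371, 1.81, 5.94, 0.774 and 1.18 CPM across the 5 Ifnar1 -/- libraries. Ifnar1 +/- library 2 was highest, and the other values overlapped between genotypes. The log2 fold change was -0.90 (SE 0.95), and 0.22 without Ifnar1 +/- library 2.

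Nr4a1, an orphan nuclear receptor whose loss together with Nr4a3 causes AML in mice, had 31.7, 193, 3.49, 5.27, 7.87 and 8.15 CPM across the 6 Ifnar1 +/- libraries and 10.4, 144, 5.05, 44.3 and 12.3 CPM across the 5 Ifnar1 -/- libraries. Library 2 was the highest of each genotype, and the remaining values overlapped. The means were 41.5 ± 74.8 CPM (SD, n = 6) and 43.1 ± 58.2 CPM (SD, n = 5), with a log2 fold change of 0.05 (SE 1.20). It was 1.94 without Ifnar1 +/- library 2 and -1.17 without Ifnar1 -/- library 2.

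Each library had its own pattern of immediate early genes. Ifnar1 -/- library 2 held the highest value of 5 members, Fos, Fosb, Junb, Ier2 and Dusp1, against 21% of all tested genes. The place of Fosb hung on the TMM factor. Without TMM scaling it had 1.97 CPM there and 2.91 CPM in Ifnar1 +/- library 2. Ier2 was then almost level, at 139.5 and 136.4 CPM in the same libraries. Ifnar1 +/- library 2 was highest for Egr2, Atf3 and Nr4a1 and among the 3 highest for 9 of 10 members, and 4.37% of tested genes had their highest value in it. Ifnar1 -/- library 1 was at the other end, among the 3 lowest for 9 of 10 members. In Ifnar1 -/- library 2 the summed level of the 10 members was 2653 CPM, most of it Dusp1, against 88.1 to 571 CPM elsewhere.

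Markers of mature cells were high in library 2 of each genotype, and in other libraries the marker lists differed from each other. Ifnar1 +/- library 6 was among the 3 highest for 6 members. It had the lowest eosinophil sum (31.9 CPM), with a neutrophil sum of 4227 CPM and a monocyte and macrophage sum of 365 CPM. In Ifnar1 -/- library 2 the eosinophil and neutrophil sums given above were the highest of the 11, and the 13 monocyte and macrophage markers summed to 3894 CPM, against at most 643 CPM elsewhere. That second value belonged to Ifnar1 +/- library 2, which also had the second highest neutrophil sum (6978 CPM), the second highest eosinophil sum (2024 CPM) and the highest sum of the 10 T and NK cell markers (1003 CPM). That last sum was mostly Nkg7 (638 CPM) and Trac (289 CPM), while the defining T cell genes Cd3d, Cd3e and Cd3g had 0.869, 0.134 and 0.201 CPM and Cd8a was at 0 there. No list had a marker at 0 in every library. The part of these cells in the values of the members was not tested. The 14 heat shock genes summed to 5100 CPM in Ifnar1 -/- library 2 and 7697 CPM in Ifnar1 +/- library 2, with 6769 to 9547 CPM in the other libraries. Constitutive chaperones made up most of these sums, with Hspa8 at 1866 and Hsp90ab1 at 1719 CPM in Ifnar1 -/- library 2. The inducible gene Hspa1a was scarce, with 0.929 CPM in that library and 0.145 to 11.5 CPM in the others. Other genes of the list were not scarce. Hsp90aa1 had 251 CPM in that library and 235 to 712 CPM in the others, and Dnajb1 had 85.1 and 75.6 to 101 CPM. The part of sample handling was not tested.

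The level of Ebf1 split the libraries into 6 below and 5 above a wide gap, with both genotypes on each side, and the immediate early genes were described on both sides without a test, because the split rests on a measured level and is not a grouping of the study. Above the gap the members were mostly low and even. Their median was lower above the gap for 9 of 10, all but Jun, against 50.4% of tested genes, and their highest value lay below the gap for 9 of 10, again all but Jun, against 63.7% of tested genes. The ranges of the sides overlapped for all 10 (0 of 10 without overlap, against 21.1% of tested genes).

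Junb showed this most clearly, with 9.61 to 11.6 CPM above the gap and 8.74 to 172 CPM (median 52.6) below it. The overlap of Junb came from Ifnar1 -/- library 1 alone, since the other 5 libraries below the gap had at least 31.5 CPM. Dusp1 had 9.83 to 24.3 CPM (median 14.6) above and 6.30 to 1824 CPM (median 37.3) below the gap. Nr4a1 had 3.49 to 12.3 CPM (median 5.27) above and 8.15 to 193 CPM (median 38.0) below. In these 3 genes the libraries above the gap were low in both genotypes. Egr1 had a median of 11.6 CPM above and 26.1 CPM below, Ier2 of 57.5 and 102 CPM, and Fos of 2.0 and 7.30 CPM. Jun was the exception, with a median of 24.2 CPM and a range of 5.76 to 151 CPM above, and 22.1 CPM and 4.69 to 58.5 CPM below. Marker sums of several cell types moved with the same split. The B-lineage sum was higher above the gap, as given above, and the 8 megakaryocyte markers summed to 13.2 to 199.5 CPM above it and 351 to 2701 CPM below. The stem and progenitor sum was 173 to 476 CPM above and 301 to 3485 CPM below, and the erythroid sum 967 to 3386 CPM above and 3263 to 134542 CPM below. For the mast cell and basophil markers it was 75.2 to 888 and 153 to 7585 CPM, and for monocytes and macrophages 26.9 to 207 and 80.3 to 3894 CPM. Ebf1 and this content of other cells cannot be told apart.

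**Figure D3:**
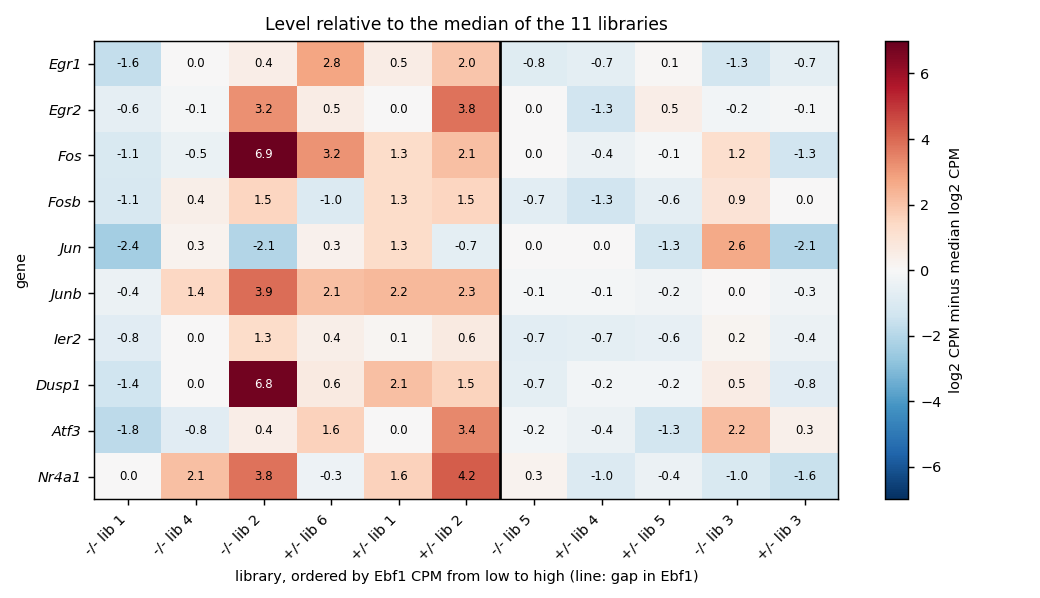
Log2 CPM of each immediate early gene minus its median over the 11 libraries, with libraries ordered by Ebf1 CPM from low (left) to high (right) and a line at the gap in Ebf1. Right of the line no value exceeds 1 except for Jun, Atf3 and Fos in Ifnar1 -/- library 3, and left of it the columns of library 2 of either genotype are the reddest.

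Egr1 was the one member in which all Ifnar1 -/- libraries lay below all Ifnar1 +/- libraries on both sides of the gap, a pattern shown by 0.455% of tested genes (66 genes). The pattern was looked for after the data were seen and was not tested, and few libraries lie on each side. Below the gap the Ifnar1 +/- libraries had 26.8, 72.2 and 128 CPM and the Ifnar1 -/- libraries 5.96, 25.4 and 18.6 CPM. Above it the Ifnar1 +/- libraries had 11.8, 11.6 and 19.7 CPM and the Ifnar1 -/- libraries 7.73 and 10.3 CPM. The nearest values of the genotypes were 26.8 and 25.4 CPM on one side and 11.6 and 10.3 CPM on the other, so the separation is narrow. With log2 Ebf1 CPM as a covariate in edgeR, the log2 fold change of Egr1 was -1.69 (SE 0.53, unadjusted p = 0.00947, adjusted p = 1). Above the gap Fos and Jun went the other way, with both Ifnar1 -/- libraries above all 3 Ifnar1 +/- libraries. This separation was narrow too. The nearest values, Ifnar1 -/- first, were 2.17 and 2.0 CPM for Fos and 24.5 and 24.2 CPM for Jun. The share of all tested genes with this order above the gap was not counted, so no weight is put on it. Below the gap no member had all Ifnar1 -/- libraries above. In the fit with log2 Ebf1 CPM as covariate, the log2 fold change of Dusp1 was 1.82 (SE 1.41) and that of Fos 1.79 (SE 1.21).

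**Figure D4:**
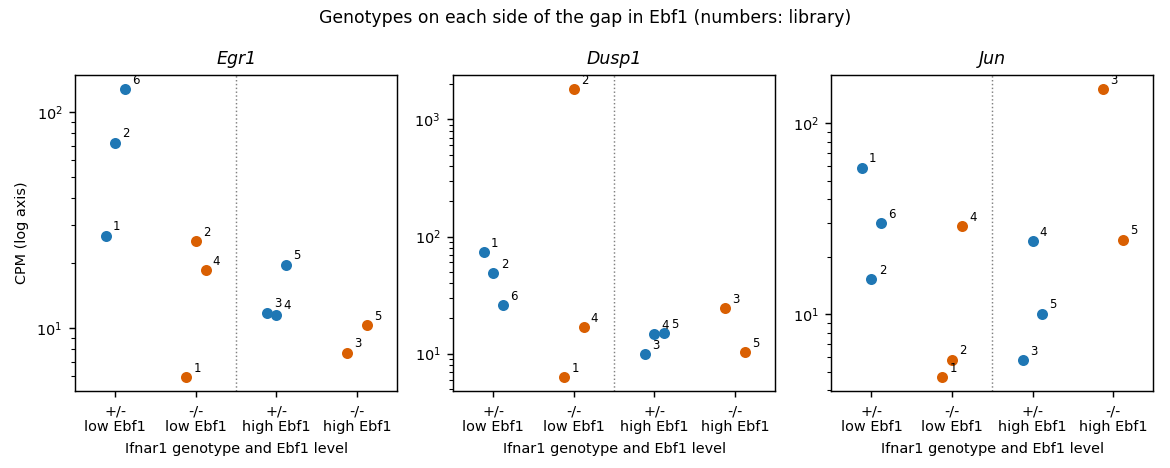
CPM on a log axis of Egr1, Dusp1 and Jun in libraries with low Ebf1 (left of the dotted line) and high Ebf1 (right), by Ifnar1 genotype, with 1 numbered point per library. On either side every Ifnar1 -/- point of Egr1 lies under the Ifnar1 +/- points (25.4 under 26.8 CPM and 10.3 under 11.6 CPM), while Dusp1 and Jun each have an Ifnar1 -/- library far above.

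The members varied together over the libraries to differing degrees. Over the 45 pairs, Spearman's rho across the 11 libraries had a median of 0.63 and ran from -0.01 to 0.95, with 43 pairs above 0. The libraries share genotype, scaling and cell makeup, so these are descriptions with no test. Junb and Dusp1 were the most alike (0.95), followed by Ier2 and Dusp1 (0.89). Jun stood apart, with -0.01 to Nr4a1. Outside the members, the genes most like their mean centred log2 CPM were Pik3cb (rho 0.95), Cd300lf (0.94), Egln3 (0.92), Bcl6, Cystm1 and Dmxl2 (0.91 each). Pik3cb encodes a catalytic subunit of phosphoinositide 3-kinase, and Cd300lf an inhibitory receptor of myeloid cells, which ran from 2.12 to 606 CPM. All 6 were highest in Ifnar1 -/- library 2, against 21% of all tested genes. They were picked for likeness to a mean that is itself highest there, so this follows largely from the choice.

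Per kilobase of exonic sequence, Ier2 was the most abundant member, with a median of 55.7 CPM per kb over the 11 libraries. Jun followed with 7.57, Dusp1 with 5.06, Junb with 5.04, Egr1 with 4.15 and Nr4a1 with 2.96 CPM per kb, and these 5 neighbours had ranges over libraries that overlapped widely. Fos (0.925), Atf3 (0.617), Egr2 (0.545) and Fosb (0.162 CPM per kb) were the scarcest. In Ifnar1 -/- library 2 the order changed, with Dusp1 at 551, Ier2 at 135 and Fos at 108 CPM per kb.

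Other genes of the pathway were read from lists chosen by function, and no gene of them passed in edgeR (adjusted p = 0.9998 for each gene named). Of the 19 factors and kinases that drive immediate early transcription, 9 had lower and 10 higher fitted values in Ifnar1 -/- AML, with a median log2 fold change of 0.08, and 8 were highest in Ifnar1 -/- library 2, beside the shares of 51.7% lower and 21% highest there over all tested genes. The kinase gene Rps6ka1 had 58.8 to 354 CPM in Ifnar1 +/- AML and 318.8, 1347, 95.8, 410.4 and 102 CPM across the 5 Ifnar1 -/- libraries, with a log2 fold change of 1.49 (SE 0.75).

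Of the 14 corepressors and phosphatases that restrain the cascade, 13 had lower fitted values in Ifnar1 -/- AML, against 51.7% of all tested genes, with a median log2 fold change of -0.46 beside -0.01. Of the 14, 1 was highest in Ifnar1 -/- library 2, against 21% of all tested genes. That gene was Dusp5, at 36.5 CPM, while Dusp2 and Spry4 were lowest there, at 0.413 CPM each. The direction of the list without that library was not examined. The genes share libraries, so the 13 are not separate observations. Spred1, an inhibitor of MAP kinase signalling, had 19.0, 15.8, 9.11, 18.6, 14.4 and 19.0 CPM across the 6 Ifnar1 +/- libraries and 10.2, 4.64, 4.15, 11.5 and 11.4 CPM across the 5 Ifnar1 -/- libraries. A single Ifnar1 +/- library, the third, lay among the Ifnar1 -/- values. Its log2 fold change was -0.93 (SE 0.34). Dusp6, the ERK phosphatase, had 239 ± 136 CPM (SD, n = 6) and 145 ± 84.5 CPM (SD, n = 5), a log2 fold change of -0.73 (SE 0.52), and overlapping ranges. Spry2, another inhibitor of receptor tyrosine kinase signalling, had 21.7 ± 14.3 CPM (SD, n = 6) and 9.03 ± 7.03 CPM (SD, n = 5). Its lowest value, 1.08 CPM, was that of Ifnar1 -/- library 2.

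Of 12 tested leucine zipper partners of AP-1, 8 were lower and 4 higher in fitted value, with a median of -0.11. Batf2, a gene known to be induced by interferons, had 3.23 ± 5.01 CPM (SD, n = 6) against 0.468 ± 0.373 CPM (SD, n = 5), with 13.3 CPM in Ifnar1 +/- library 6. Of 8 tested genes known as targets of EGR or NR4A factors, 5 were lower and 3 higher, with a median of -0.14. Trp53 had 419 ± 97.2 CPM (SD, n = 6) and 512 ± 167 CPM (SD, n = 5), and Cdkn1a 298 ± 219 and 186 ± 153 CPM. Both differences were within the spread.

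Among 39 tested other immediate early and primary response genes, 19 were lower and 20 higher in fitted value, with a median log2 fold change of 0.03. The split by Ebf1 was more visible here than in the 10 members: the ranges of the sides did not overlap for 17 of 39 genes, 14 of them lower above the gap, beside the 21.1% of tested genes. Bhlhe40 and Klf6, both named after their values were seen, had 8.88 to 50.2 and 43.0 to 84.0 CPM above the gap, and 94.0 to 772 and 219 to 870 CPM below it. Bhlhe40 and Klf6 encode transcription factors of the basic helix-loop-helix and the Krüppel-like families. Cebpb, a transcription factor of emergency granulopoiesis, had 23.7 CPM in Ifnar1 -/- library 2 and 0.0720 to 2.17 CPM elsewhere. Gadd45b, a stress sensor, was highest in Ifnar1 -/- library 5, with 101 CPM against 0.811 to 14.8 CPM in the other libraries.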

How the data were processed

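RNA of 11 AML samples was measured, 6 Ifnar1 +/- and 5 Ifnar1 -/-. The authors deposited estimated counts per gene, which were not scaled between libraries. Per the submitters' processing notes, bcl2fastq and DRAGEN were used, without versions or roles, and the labels' protocols name a Qiagen micro kit for RNA and a Clontech kit for libraries. Genome build and use of strand were not given in the sources used here. Of 55774 rows, 287 identical copies of repeated identifiers were dropped. Symbols were matched for 55141 of 55487 genes.

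After rounding, edgeR 4.0.16 (R 4.3.3) was run with filterByExpr by genotype, TMM factors, robust glmQLFit and a two-sided glmQLFTest, and with Benjamini-Hochberg adjustment over 14521 genes and a threshold of 0.05. The SE is the log2 fold change over the square root of F. The common biological coefficient of variation was 0.782, and only large differences can pass at that spread. The steps were tested on data simulated with a smaller spread than that of these libraries. That test checked the code and does not show what can be detected here. The depth, of 25583642 counts or more, puts at least 11 counts behind each value of a member.

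The Ebf1 split is the largest gap in log2 Ebf1 CPM. Members and lists were chosen with earlier results of these data known. Other named genes are up to 3 of a list with the smallest unadjusted p and up to 2 with the highest mean. Some were instead chosen after their values were seen. These are marker genes used to describe libraries, Hspa1a, Dnajb1, Dusp2, Dusp5, Spry4, Bhlhe40, Klf6 and the sex-linked genes. The genes most like the members are the 6 with the highest Spearman's rho. Alternatives were DESeq2 1.42.0, limma 3.58.1 voom with a quality weight for each library, other scaling and filters, and robust=FALSE. Further ones were Ebf1 as covariate, the replicate number as a block and leaving out each library. The values within Ebf1 sides and the library with the highest value were added after seeing the data.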

Additional observations from a re-analysis of the deposited data

Results flagged for a closer look

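In 10 of 20 groups of values (10 genes in each genotype) 1 library stood apart from the rest of its genotype by the gap to its nearest neighbour. The nominal rate of this rule by chance is about 1 in 20 groups of normally distributed values, CPM are skewed, and the genes share libraries, so the 10 are not separate events. Ifnar1 -/- library 2 accounts for 5 of them. There Dusp1 was at 1824 CPM, with 6.30 to 24.3 CPM in the other Ifnar1 -/- libraries, and Fos at 255 CPM, with 1.05 to 4.83 CPM. Junb was at 172 CPM (8.74 to 31.5 CPM in the others), Nr4a1 at 144 CPM (5.05 to 44.3 CPM) and Egr2 at 17.2 CPM (1.20 to 1.86 CPM). Ifnar1 +/- library 2 accounts for 3, with Nr4a1 at 193 CPM (3.49 to 31.7 CPM in the other Ifnar1 +/- libraries), Egr2 at 26.3 CPM (0.727 to 2.63 CPM) and Atf3 at 13.9 CPM (0.555 to 4.03 CPM). Ifnar1 -/- library 3 accounts for the other pair, Jun at 151 CPM (4.69 to 28.9 CPM) and Atf3 at 5.94 CPM (0.371 to 1.81 CPM).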

How the results depend on the processing

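No member passed the adjusted threshold under any of the alternatives run, and the smallest adjusted p of a member was 0.508, for Egr1. No gene passed in edgeR under any alternative or in limma voom with quality weights (1241 genes at an unadjusted p under 0.05). DESeq2 called 3 genes, none of them a member. DESeq2 gave no p for Egr2, Fos and Dusp1. The number of members with lower fitted values in Ifnar1 -/- was 6 with limma voom, 5 with Ebf1 as covariate and 1 of the 6 members left by a filter of 5 CPM in 5 libraries, and ran from 1 to 9 when libraries were left out one at a time. The cause of these shifts was not tested.

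Egr1 kept its direction under all 20 alternatives, from -2.08 to -1.06 with a library left out and from -1.77 to -0.92 otherwise. The signs of other genes turned in the log2 fold change. With limma voom and its quality weights, Fos was -0.054, Ier2 -0.011 and Dusp1 -0.38. With Ebf1 as covariate, Junb was -0.038 and Nr4a1 -0.58. Nr4a1 was -0.26 with library totals and -0.010 without a filter. With libraries left out, Egr2 ran from -1.87 to 1.31, Fos from -1.42 to 3.79, Fosb from -0.23 to 0.54, Jun from -0.57 to 1.33, Junb from -1.03 to 0.81, Ier2 from -0.27 to 0.37, Dusp1 from -1.10 to 4.05, Atf3 from -1.85 to 0.22 and Nr4a1 from -1.17 to 1.94. The number of members whose ranges on the sides of the Ebf1 gap did not overlap ran from 0 to 1 with a library left out.

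Same-numbered libraries of the genotypes did not vary together throughout (correlations of 0.41, 0.15, 0.58, -0.55 and 0.52 for numbers 1 to 5), so the numbers are not taken as pairs. With the replicate number as a block, 0 genes and 0 members were called (287 genes at an unadjusted p under 0.05), 3 members had lower fitted values, and Egr1 was -0.92. That fit leaves out Ifnar1 +/- library 6, which has no partner.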
